A study of Bos taurus with 48 samples.

Results

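The comparison set Piedmontese × Hereford calves against Wagyu × Hereford calves at birth, labelled 280 days of gestation, in skeletal muscle of the back (longissimus). It holds the 3 arrays that the labels place at birth, of 48 arrays in the series, and each array carries 1 calf of either cross, so that 3 calves of each cross were measured and no calf was measured more than once. Both crosses share the Hereford side, and no treatment is named for the newborn calves. The tissue is labelled as a biopsy, and the RNA is total RNA of the whole sample. The other arrays compare the same crosses at 3 fetal ages and 6 postnatal ages or follow a diet experiment. The sex and birth weight of the calves are not given in the sources used here, the genotype at the myostatin gene was not read from these data, and each cross is represented by 3 calves only.

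Piedmontese cattle are a double-muscled breed that carries a missense allele of MSTN. MSTN encodes myostatin, a secreted member of the TGF-beta family that limits the number and size of muscle fibres through activin type II receptors, SMAD2 and SMAD3. Wagyu cattle are known for marbling, the deposition of fat within muscle, which grows from progenitors in the connective tissue between fibres. The comparison asks how muscle that was formed in these crosses differs in its transcripts at the moment of birth, when the animal passes from placental supply to its own feeding and temperature control.

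The array carries 1 probe for MSTN, assigned by its annotation to the bovine myostatin transcript. It is shown because the crosses differ in this gene by breed, and a 60-base probe reads the amount of transcript and not the allele.

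MSTN probe: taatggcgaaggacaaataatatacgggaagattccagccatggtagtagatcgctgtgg

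The 3 arrays differed in quality and in the size of their ratios. Between 53.0% and 76.4% of spots were well above background per channel, with the lowest shares in both channels of pair 2, and no spot was saturated. In pairs 1 and 3 the Wagyu cross calf was labelled with Cy5 and the Piedmontese cross calf with Cy3, and in pair 2 the dyes were swapped. The ratios of pair 2 had a standard deviation (SD) of 0.30 on the log2 scale over the genes, against 0.46 in pair 1 and 0.52 in pair 3. Across 13951 genes, which are not independent replicates, the ratios of pairs 1 and 3 had a correlation of 0.395, those of pairs 2 and 3 one of 0.213, and those of pairs 1 and 2 one of 0.081. Pair 2 is at once another pair of calves, another array and the only one with swapped dyes, and these cannot be told apart. Pair 1 was scanned in another session than pairs 2 and 3.

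The defining markers of skeletal muscle were present in every calf. The sarcomeric actin ACTA1 had levels of 16.89, 16.91 and 16.80 (log2 intensity) in the Piedmontese cross calves of pairs 1, 2 and 3, and 16.58, 16.74 and 16.47 in the Wagyu cross calves. The summed level of 12 skeletal muscle markers lay between 19.60 and 19.76 in the Piedmontese cross and between 19.39 and 19.77 in the Wagyu cross, so the ranges overlapped. Of 9 sex-linked markers only ZFY, on the Y chromosome, was measured, with ratios of 0.05, -0.16 and 0.49 in pairs 1, 2 and 3.

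All ratios below are log2 of the Piedmontese cross over the Wagyu cross within an array, given for pairs 1, 2 and 3 in this order, and a positive value means higher in the Piedmontese cross. Of 13951 genes tested, 0 (0%) passed limma's test at a Benjamini-Hochberg adjusted p of 0.05 with 3 pairs. At an unadjusted p of 0.05, 936 genes (6.71%) were higher and 717 (5.14%) lower in the Piedmontese cross. The same sign on all 3 arrays was seen for 2827 genes (20.3%) that were higher and 2427 genes (17.4%) that were lower. For 675 genes (4.84%) all 3 Piedmontese cross calves lay above all 3 Wagyu cross calves, and for 652 genes (4.67%) they lay below. No gene named below passed the adjusted test, so each is described by its values, and the unadjusted p is limma's over all genes. When the spread was instead pooled over the 9 arrays at 135 days, 195 days and birth, 68 of 13944 genes (0.488%) passed, 47 of them higher and 21 lower in the Piedmontese cross. By their labels, the 6 fetal arrays among them hold 1 animal on 2 arrays at each of 135 and 195 days. The fit counted all 9 arrays as independent. Without the 2 arrays that repeat an animal 0 genes passed, and 2135 had an unadjusted p under 0.05. Without replicate 2 at 135 days, which stood apart from the other fetal arrays, 122 genes passed, 75 of them higher and 47 lower.

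MSTN itself did not separate the crosses. Its level was 7.56, 7.46 and 7.32 (log2 intensity) in the Piedmontese cross calves of pairs 1, 2 and 3 and 8.28, 7.31 and 6.76 in the Wagyu cross calves. The highest and the lowest calf were both Wagyu crosses, and the Piedmontese cross calves lay between them. The ratios of -0.71, 0.15 and 0.56 gave a mean of -0.0019 ± 0.65 (SD, n = 3; adjusted p = 0.998 by limma). The probe was well above background in all 3 Piedmontese cross calves and in 1 of the 3 Wagyu cross calves, so its signal was near the lower limit of the array. The mean was 0.92 when the deposited log ratio was used.

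The genes with the largest mean ratios in the Piedmontese cross were led by PTX3, a pattern recognition protein of the innate immune system that is made in response to inflammatory signals. Its levels were 11.38, 12.44 and 11.84 in the Piedmontese cross calves and 7.60, 10.44 and 8.26 in the Wagyu cross calves. The crosses did not overlap, and the Wagyu cross calf of pair 2 lay well above the other two. The ratios were 3.78, 2.01 and 3.59, with a mean of 3.13 ± 0.97 (SD, n = 3), an 8.73-fold difference (limma, unadjusted p = 0.00165, adjusted p = 0.400).

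Other genes of immune cells were among the 10 largest in this direction. S100A8 and S100A12 encode calcium-binding alarmins that are abundant in neutrophils. S100A8 had levels of 8.34, 10.74 and 12.08 in the Piedmontese cross and 8.15, 8.47 and 8.41 in the Wagyu cross, with ratios of 0.19, 2.27 and 3.66. S100A12 had ratios of 0.20, 2.08 and 3.06. For both, the Wagyu cross calves lay close together and the Piedmontese cross calves were spread out, with pair 1 showing almost no difference. S100A9, the partner of S100A8, had ratios of 0.32, 1.75 and 3.02. The summed level of 11 leukocyte markers, which include these 3 genes, was 12.44 to 14.44 in the Piedmontese cross. In the Wagyu cross it was 12.12 to 12.48, so the ranges overlapped. The pan-leukocyte receptor PTPRC had ratios of 0.15, 0.23 and 0.48. Of the 11 markers, 5 were higher on all 3 arrays, S100A8, S100A9 and S100A12 among them, against 20.3% of all genes. The 1 lower on all 3 arrays, against 17.4%, was ITGAL with -0.09, -0.26 and -0.06. CD14, CD68 and CSF1R had mean ratios of 0.02, 0.09 and -0.05. The 4 measured blood markers had a summed level of 11.72 to 12.19 in the Piedmontese cross and 11.20 to 11.71 in the Wagyu cross, and the fetal globin HBG had ratios of 1.02, 0.02 and 1.39. The part of leukocytes and blood in these differences was not tested. The summed levels of endothelial, nerve, bone and cartilage, and skin markers overlapped between the crosses. In whole muscle, more cells of a type and more RNA per cell cannot be told apart.

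BOLA-DQB1, the beta chain of a polymorphic MHC class II molecule, had the steadiest difference of this set. Its levels were 9.19, 10.36 and 9.36 in the Piedmontese cross and 7.59, 8.51 and 7.66 in the Wagyu cross. All 3 Piedmontese cross calves lay above all 3 Wagyu cross calves. The ratios of 1.59, 1.85 and 1.70 had a mean of 1.71 ± 0.13 (SD, n = 3; limma, unadjusted p = 6.3e-05, adjusted p = 0.357). CD74, the invariant chain of MHC class II, had ratios of 0.33, -0.01 and -0.27, so it did not share the pattern.

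TIPARP, an ADP-ribosyltransferase induced by the aryl hydrocarbon receptor, was higher by 2.27, 1.39 and 2.21 (mean 1.96 ± 0.49, SD, n = 3; limma, unadjusted p = 0.000912). The crosses did not overlap. THBS1, a matrix glycoprotein that can activate latent TGF-beta, had ratios of 3.76, 0.65 and 1.49. The linker histone H1-2 had ratios of 2.00, 1.13 and 3.92, the mitochondrial pyrimidine carrier SLC25A33 ratios of 2.42, 0.39 and 3.94, and SH3RF2 ratios of 2.82, 0.36 and 3.08. In these 4 genes the size of the difference varied by more than 2-fold between pairs on the log2 scale.

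In the other direction CISH had the largest mean ratio. CISH and SOCS2 are feedback inhibitors of JAK-STAT signalling that are induced by growth hormone and cytokines. CISH had levels of 11.38, 11.64 and 10.73 in the Piedmontese cross and 13.69, 12.76 and 13.07 in the Wagyu cross. The crosses did not overlap, and the ratios of -2.30, -1.13 and -2.34 had a mean of -1.92 ± 0.69 (SD, n = 3; limma, unadjusted p = 0.00296, adjusted p = 0.400). SOCS2 had levels of 9.63, 9.33 and 9.68 in the Piedmontese cross and 11.96, 9.49 and 12.19 in the Wagyu cross. Its ratios were -2.33, -0.16 and -2.51, and the Wagyu cross calf of pair 2 lay below the highest Piedmontese cross calf. GHR, the growth hormone receptor, had ratios of 0.37, 0.13 and 1.63.

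AKR1C4, the name the reference gives to a probe deposited as AKR1C1, belongs to a family of aldo-keto reductases of steroid and prostaglandin metabolism whose members resemble each other in sequence. It had levels of 8.63, 8.10 and 8.13 in the Piedmontese cross and 10.06, 9.88 and 10.32 in the Wagyu cross. Every Piedmontese cross calf lay more than 1 log2 unit below every Wagyu cross calf. The ratios of -1.43, -1.78 and -2.19 had a mean of -1.80 ± 0.38 (SD, n = 3; limma, unadjusted p = 0.00054, adjusted p = 0.400). POLR1H, a subunit of RNA polymerase I, had levels of 10.35, 10.55 and 10.49 in the Piedmontese cross against 12.06, 12.04 and 12.04 in the Wagyu cross, with ratios of -1.71, -1.49 and -1.55. The 3 calves of each cross lay within 0.20 log2 units of each other for POLR1H, and the mean ratio was -1.58 ± 0.11 (SD, n = 3; limma, unadjusted p = 7.68e-05, adjusted p = 0.357).

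Another 5 genes lower in the Piedmontese cross were less even. LOC515676, known only by its locus number, had ratios of -1.40, -2.99 and -0.33. TAGAP, a GTPase-activating protein of T cells, had ratios of -1.91, -0.42 and -2.22. MXRA8, a cell surface protein of stromal cells, had -2.44, -0.02 and -1.79, and ANGPTL2, a secreted angiopoietin-like protein, had -2.22, -0.25 and -1.50. GPRC5B, an orphan receptor, had -2.62, -0.56 and -0.61. In 4 of these 5 genes pair 2 gave the smallest difference.

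**Figure D1:**
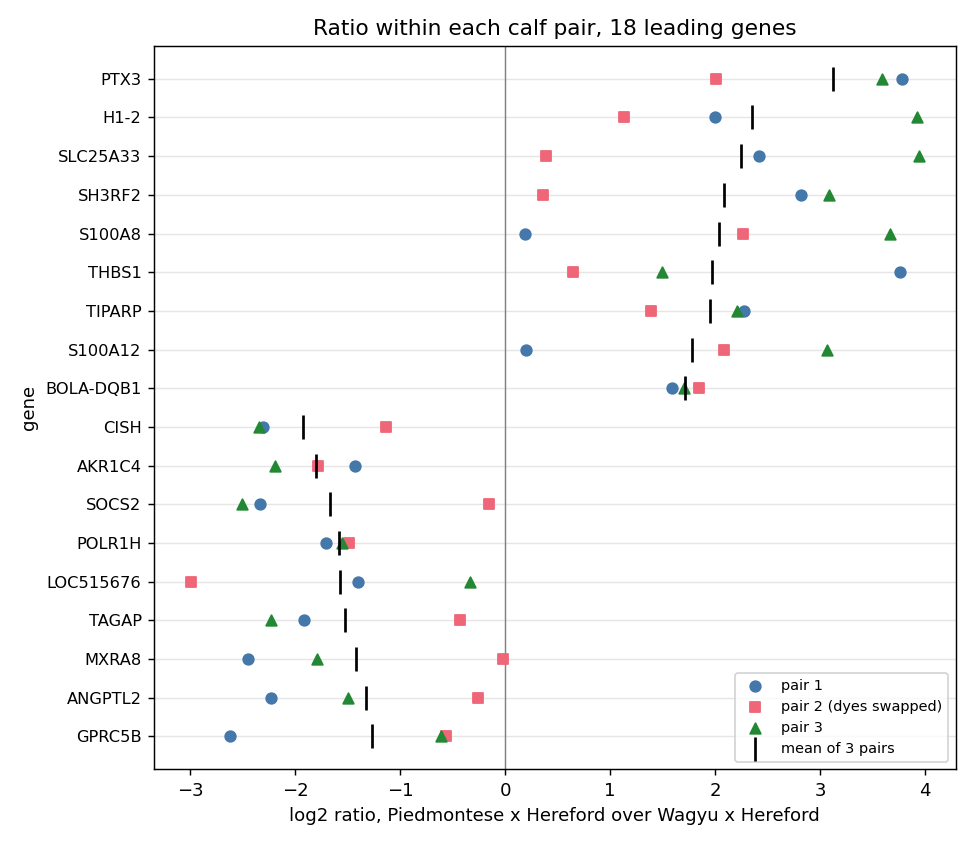
Log2 ratio of Piedmontese × Hereford over Wagyu × Hereford in each of the 3 calf pairs (coloured symbols) and their mean (black bar) for 18 of the 20 genes with the largest mean ratios, 9 in each direction. All points of a gene lie on the same side of 0 by the rule that chose them, and the square of pair 2 is nearest to 0 for 13 of the 18 genes.

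The levels of single calves show where pair 2 stood apart. For 18 of the 20 leading genes the Wagyu cross calf of pair 2 was the one nearest to the mean of the Piedmontese cross, and for 7 of them the Piedmontese cross calf of pair 2 was the one nearest to the mean of the Wagyu cross. Over all 13951 genes the Wagyu cross calf of pair 2 was nearest for 51.4%, and the Piedmontese cross calf of pair 2 for 4199 genes. The leading genes were chosen by their ratios, and calf, array and dye of pair 2 cannot be told apart. The ratio of pair 2 was the smallest for 15 of the 20 genes (75%) and for 48.8% of all genes. The metabolic regulator KLF15, a transcription factor induced by glucocorticoids, shows it. Its levels were 10.63, 10.04 and 9.35 in the Piedmontese cross and 7.84, 10.14 and 6.93 in the Wagyu cross. The ratios were 2.79, -0.11 and 2.42. FOXO3, a transcription factor of the atrophy programme that is held back by insulin signalling, had ratios of 1.60, -0.30 and 2.32, and the cell cycle inhibitor CDKN1A ratios of 2.44, -0.90 and 2.67. The levels of CDKN1A in the Wagyu cross were 13.09, 16.04 and 13.34, against 15.53, 15.14 and 16.01 in the Piedmontese cross. A level of a single calf also depends on the scaling between arrays, which the ratio within an array does not.

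Genes of myostatin and activin signalling had mean ratios on both sides of 0. Of 41 genes listed, 34 were measured, and their mean ratios ran from -0.82 to 0.57, with a median of 0.10 against 0.01 over all genes tested. None passed the adjusted test. Ratios were positive on all 3 arrays for 9 of the 34 and negative for 6, against 20.3% and 17.4% of all genes. At an unadjusted p of 0.05 by limma, 4 were higher and 3 lower, against 6.71% and 5.14% of all genes. The calves of the crosses did not overlap for 3 in each direction, against 4.84% of all genes higher and 4.67% lower.

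Among the ligands, TGFB3 had the largest difference. Its levels were 7.91, 7.97 and 7.77 in the Piedmontese cross and 8.96, 8.14 and 8.99 in the Wagyu cross, with the Wagyu cross calf of pair 2 closest to the Piedmontese cross and no overlap. The ratios were -1.06, -0.18 and -1.22 (mean -0.82 ± 0.56, SD, n = 3; limma, unadjusted p = 0.0293). TGFB2 had ratios of 0.73, 0.17 and 0.03, and TGFB1 of -0.03, 0.02 and 0.12. The activin subunit INHBB was higher on all 3 arrays (0.52, 0.24 and 0.77; limma, unadjusted p = 0.0208). The activin subunit INHBA had ratios of -0.24, 0.02 and -0.69, and the inhibin subunit INHA was the least steady member, with -1.37, 1.21 and -0.60.

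Of the secreted antagonists, FST and FSTL3 lay on opposite sides of 0. FST, follistatin, which binds and blocks activins and myostatin, had levels of 11.10, 10.81 and 10.24 in the Piedmontese cross and 11.36, 11.59 and 11.52 in the Wagyu cross. The crosses did not overlap, and the ratios were -0.26, -0.78 and -1.28 (mean -0.77 ± 0.51, SD, n = 3; limma, unadjusted p = 0.0270, adjusted p = 0.415). FSTL3, which binds the same ligands, had ratios of 0.36, 0.57 and 0.62 (limma, unadjusted p = 0.00661). FSTL1, a related glycoprotein, had -0.27, -0.16 and -0.96. WFIKKN2, which binds myostatin and its propeptide, had -0.04, 0.23 and 0.36.

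The proteases that process the precursors were both higher on all 3 arrays. FURIN, which cleaves the propeptide, had ratios of 0.18, 0.47 and 0.88, and its crosses did not overlap. BMP1, which releases myostatin from its latent complex, had ratios of 0.42, 0.72 and 0.58 (mean 0.57 ± 0.15, SD, n = 3; limma, unadjusted p = 0.00489, adjusted p = 0.400). The latency proteins LTBP1 and LTBP4 had mean ratios of -0.10 and 0.03.

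The receptors and SMADs had mean ratios between -0.32 and 0.52. The myostatin receptor ACVR2A had ratios of -0.46, -0.14 and -0.12, and ACVR1B, a type I receptor, -0.35, 0.35 and 0.38. BMPR1A had -0.49, -0.22 and -0.25 (limma, unadjusted p = 0.0337), while the other receptors ACVR1, BMPR1B, BMPR2, TGFBR1, TGFBR2 and TGFBR3 had mean ratios between -0.17 and 0.20. The SMADs of the myostatin branch, SMAD2 and SMAD3, had mean ratios of 0.23 and -0.24, and SMAD4 and SMAD1 had 0.20 and 0.07. The inhibitory SMAD7 had ratios of 1.03, 0.46 and 0.06. SMURF1, SMURF2, SKI and BAMBI, which limit the signal, had mean ratios of 0.09, 0.28, 0.07 and 0.13. TCAP, a sarcomere protein that binds myostatin, had 0.75, 0.36 and 0.06.

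**Figure D2:**
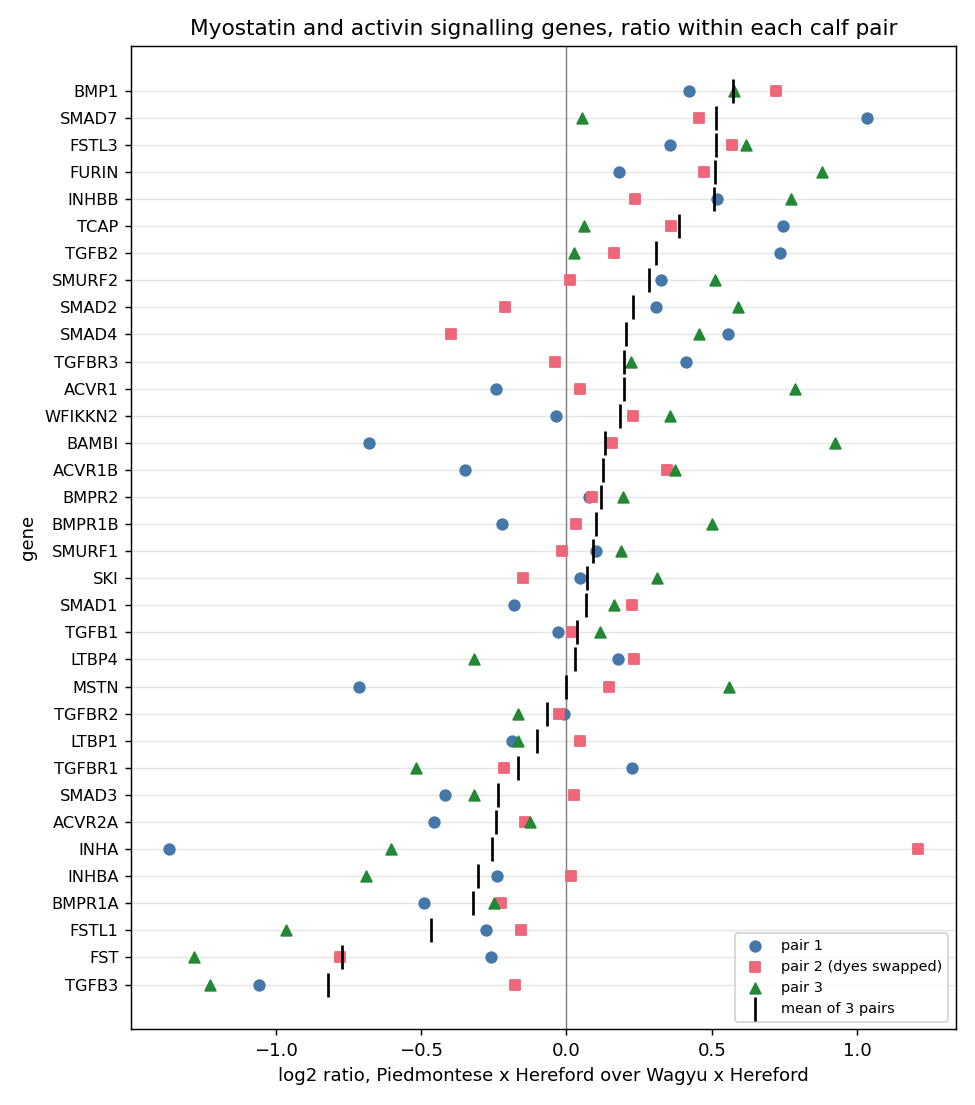
Log2 ratio of Piedmontese × Hereford over Wagyu × Hereford in each of the 3 calf pairs (coloured symbols) and their mean (black bar) for the 34 measured genes of myostatin and activin signalling, ordered by mean. BMP1 is at the top with a mean of 0.57, TGFB3 at the bottom with -0.82, and MSTN has its 3 points on both sides of 0.

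The lowest myogenic regulator was MYOD1, a transcription factor that commits cells to the muscle lineage, and the highest was CDKN1A, with the values given above. Its levels were 12.00, 11.51 and 11.20 in the Piedmontese cross and 12.86, 12.14 and 13.03 in the Wagyu cross, without overlap. The ratios were -0.86, -0.63 and -1.83 (mean -1.11 ± 0.64, SD, n = 3; limma, unadjusted p = 0.0159). MEF2C, its partner in activating muscle genes, had -1.01, -0.23 and -1.29. Of the 18 measured regulators, 2 were higher and 2 lower on all 3 arrays, against 20.3% and 17.4% of all genes. The median was -0.01.

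Slow and fast fibre genes encode the contractile proteins and regulators that set the type of a muscle fibre. Of 21 slow fibre genes, 7 were lower and 2 higher on all 3 arrays, with a median of -0.20. Of 18 fast fibre genes, 0 were lower and 4 higher on all 3 arrays, where 17.4% of all genes were lower and 20.3% higher. The median of the fast fibre genes' mean ratios was -0.01, although their median was above 0 in each pair, at 0.07, 0.13 and 0.07. CSRP3, the muscle LIM protein of the Z-disc, was the lowest slow fibre gene. Its levels were 15.70, 14.65 and 15.73 in the Piedmontese cross and 16.83, 16.22 and 16.70 in the Wagyu cross. The crosses did not overlap, and the ratios of -1.14, -1.57 and -0.97 had a mean of -1.23 ± 0.31 (SD, n = 3; limma, unadjusted p = 0.00129, adjusted p = 0.400). The slow tropomyosin TPM3 had ratios of -0.70, -0.49 and -0.65, and the stretch-responsive ANKRD2 had -0.21, -0.42 and -0.49. The fast alpha-actinin ACTN3 had ratios of 0.64, 0.13 and 0.74, and the fast myosin light chain MYL1 0.66, 0.13 and 0.52. In the same list MYL11 had 0.15, -0.18 and -0.10, and TNNT3 had 0.25, -0.20 and -0.08. MYH7, the slow myosin heavy chain, had 0.20, -0.22 and -0.28. TBX15, the highest member of the slow list, had a mean ratio of 0.35 and is among the 2 counted as higher on all 3 arrays. The study lists TBX15 in its muscle and glycolysis module, so its place among the slow fibre genes is uncertain. TPM1, the highest of the fast list, had a mean of 0.51, and EYA1, the lowest of the fast list, -0.26.

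Embryonic and neonatal contractile genes had a median of -0.26 over 11 measured genes. Of these, 4 were lower and 1 higher on all 3 arrays, against 17.4% and 20.3% of all genes. MYH3, embryonic myosin, had levels of 9.42, 10.43 and 9.19 in the Piedmontese cross and 10.42, 10.64 and 11.29 in the Wagyu cross. The ratios were -0.21 in pair 2 and -2.10 in pair 3, with pair 1 between them, and 1 Piedmontese cross calf lay above 1 Wagyu cross calf. The imprinted gene MEST had -0.54, -0.58 and -1.74 without overlap, and the imprinted gene PEG3 had 0.18, 0.76 and 0.46.

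Genes of connective tissue held many members with lower levels in the Piedmontese cross. Of 18 measured genes of fibro-adipogenic progenitors, the cells between fibres that give rise to fat and fibrous tissue, 8 were lower on all 3 arrays and 0 higher, where 17.4% of all genes were lower and 20.3% higher. For 6 of the 18 all Piedmontese cross calves lay below all Wagyu cross calves, against 4.67% of all genes. The median was -0.22. PDGFRB, a growth factor receptor of perivascular and stromal cells, had levels of 10.04, 9.92 and 10.20 in the Piedmontese cross and 10.74, 10.29 and 10.88 in the Wagyu cross, with ratios of -0.70, -0.37 and -0.68 (limma, unadjusted p = 0.00622). PI16, which marks an adventitial fibroblast population, had -1.17, -0.14 and -1.59. LUM, lumican, a proteoglycan of collagen fibrils, had ratios of -2.13, 0.03 and -1.54, and its level in the Wagyu cross calf of pair 2 was 8.78 against 10.86 and 10.91 in the other Wagyu cross calves. PDGFRA, the receptor that defines these progenitors, had ratios of 0.28, 0.19 and -0.36, and the proteoglycan decorin, DCN, had -0.39, 0.29 and 0.08. KLF4 was the highest of the list with 2.56, -0.30 and 1.27.

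Fibrillar collagens were among the lower matrix genes. COL1A1, a chain of type I collagen, had levels of 12.99, 12.79 and 13.38 in the Piedmontese cross and 14.39, 13.35 and 14.20 in the Wagyu cross, with ratios of -1.41, -0.56 and -0.82 (mean -0.93 ± 0.43, SD, n = 3; limma, unadjusted p = 0.00927, adjusted p = 0.404). COL3A1 had ratios of -0.44, -0.52 and -0.72 and no overlap between crosses. The microfibril protein FBN1 had -0.69, -0.29 and -0.82. Of 38 measured matrix genes, 9 were lower and 5 higher on all 3 arrays, against 17.4% and 20.3% of all genes. The median was -0.12, with -0.25, 0.07 and -0.25 in pairs 1, 2 and 3. The 6 measured fibroblast and tendon markers had a summed level of 14.06 to 14.29 in the Piedmontese cross and 14.40 to 15.16 in the Wagyu cross, and the 5 heart and smooth muscle markers 14.26 to 14.40 against 14.42 to 15.36. Of these, 2 of 6 and 2 of 5 were lower on all 3 arrays and none higher. The fibroblast and tendon markers share COL1A1 and COL3A1 with the matrix list, and LUM, DCN and PDGFRA with the progenitor list. Their lower sum is therefore not separate from the values of those lists. The part of either marker set in the difference was not tested.

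Adipocyte genes differed in both directions. FABP4, a fatty acid carrier of mature adipocytes, had ratios of -1.94, 0.22 and -0.99 and was well above background in 2 calves of each cross. The lipid droplet gene CIDEC had -0.62, -0.01 and -0.41. CEBPA, a transcription factor of adipocyte differentiation, went the other way, with levels of 12.87, 13.65 and 13.16 in the Piedmontese cross and 12.27, 12.63 and 12.34 in the Wagyu cross and ratios of 0.60, 1.02 and 0.83. Of 26 measured genes, 6 were lower and 3 higher on all 3 arrays, against 17.4% and 20.3% of all genes. The summed level of 4 adipocyte markers overlapped between crosses, at 9.23 to 10.48 and 9.17 to 11.19.

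Genes of glucose use were higher on all 3 arrays little more often than all genes tested. Of 28 measured genes of glycolysis and glycogen, 7 were higher and 1 lower on all 3 arrays. Among all genes 20.3% were higher and 17.4% lower. The list's median was 0.25, with -0.05, 0.27 and 0.39 in pairs 1, 2 and 3. SLC2A1, the glucose transporter of fetal tissues, had levels of 10.62, 11.44 and 11.42 in the Piedmontese cross and 8.72, 11.20 and 9.96 in the Wagyu cross, and ratios of 1.90, 0.24 and 1.46. PGK1, a glycolytic kinase, had ratios of 0.32, 1.10 and 0.84 without overlap. FBP2, the muscle fructose bisphosphatase, was the lowest with -1.54, -0.37 and -0.46.

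Mitochondrial genes had medians near 0. Of 47 genes of the respiratory chain and citric acid cycle, 9 were higher and 1 lower on all 3 arrays. The shares of all genes were 20.3% and 17.4%. The crosses did not overlap for 6, all of them higher, against 4.84% of all genes. The median was 0.04. FH, fumarate hydratase, had ratios of 1.50, 0.41 and 0.48, and the complex III subunit UQCRQ 0.19, -0.25 and -0.93. Of 26 genes of fatty acid oxidation, 6 were lower and 3 higher on all 3 arrays, against 17.4% and 20.3% of all genes. FABP3, the fatty acid carrier of muscle, had -2.23, 0.62 and -1.35, and the uncoupling protein UCP3 0.11, -0.61 and 2.19.

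Genes of insulin and growth factor signalling differed in both directions, with a median of 0.05. Of 27 measured, 9 were higher and 3 lower on all 3 arrays, against 20.3% and 17.4% of all genes. IRS2, an adaptor of the insulin receptor, had ratios of 1.41, 0.39 and 1.40 (limma, unadjusted p = 0.0142), and IGFBP3, the main carrier of IGFs in serum, 0.45, 0.76 and 1.28. IGFBP5, the IGF binding protein of differentiating muscle, was the lowest with -0.75, -0.36 and -1.46. Of 30 genes of muscle protein breakdown, 10 were higher and 2 lower on all 3 arrays, against 20.3% and 17.4% of all genes. The median was 0.29. DDIT4, an inhibitor of mTORC1 induced by stress and glucocorticoids, had levels of 15.97, 15.48 and 15.40 in the Piedmontese cross and 15.03, 14.92 and 14.82 in the Wagyu cross. Its ratios were 0.94, 0.56 and 0.58, and the crosses did not overlap. The autophagy gene MAP1LC3A had 0.56, 0.49 and 0.54 without overlap. ATG5 was the lowest of the list, with a mean of -0.36.

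Immediate early and stress genes depended on the pair. Their median over 35 genes was 1.03 in pair 1, -0.30 in pair 2 and -0.07 in pair 3. On all 3 arrays 5 were higher and 3 lower, against 20.3% and 17.4% of all genes. NR4A3, an orphan nuclear receptor, had ratios of 3.01, 2.20 and -0.90, and its relative NR4A2 had 3.49, 0.87 and 0.33. The chaperone HSPA1A had -0.27, 0.38 and -2.17, while the small heat shock protein HSPB1 had -0.51, -0.55 and -0.34. The 19 measured genes of thyroid, glucocorticoid and catecholamine response had a median of 0.19. Of these, 5 were higher and 2 lower on all 3 arrays, against 20.3% and 17.4% of all genes. ZBTB16, a transcription factor strongly induced by glucocorticoids, had levels of 11.67, 11.97 and 11.29 in the Piedmontese cross and 10.12, 11.32 and 9.60 in the Wagyu cross, and ratios of 1.54, 0.65 and 1.69. HSD11B2, which inactivates cortisol, was the lowest with a mean of -0.26.

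Of 26 measured cell division genes, 9 were higher and 2 lower on all 3 arrays, against 20.3% and 17.4% of all genes, with a median of 0.10, and the highest and lowest were TOP2A with a mean of 0.35 and AURKA with -0.24. Of 22 cytosolic ribosomal protein genes, 0 were higher and 8 lower on all 3 arrays, where 20.3% of all genes were higher and 17.4% lower. For 5 of them the calves of the crosses did not overlap, against 4.67% of all genes that were lower without overlap. The median was -0.10, and the ends were RPL13A with 0.86 and RPL13 with -0.39. Of 16 measured interferon response genes, 1 was higher and 2 lower on all 3 arrays, with USP18 at 0.54 and PSMB9 at -0.51.

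**Figure D3:**
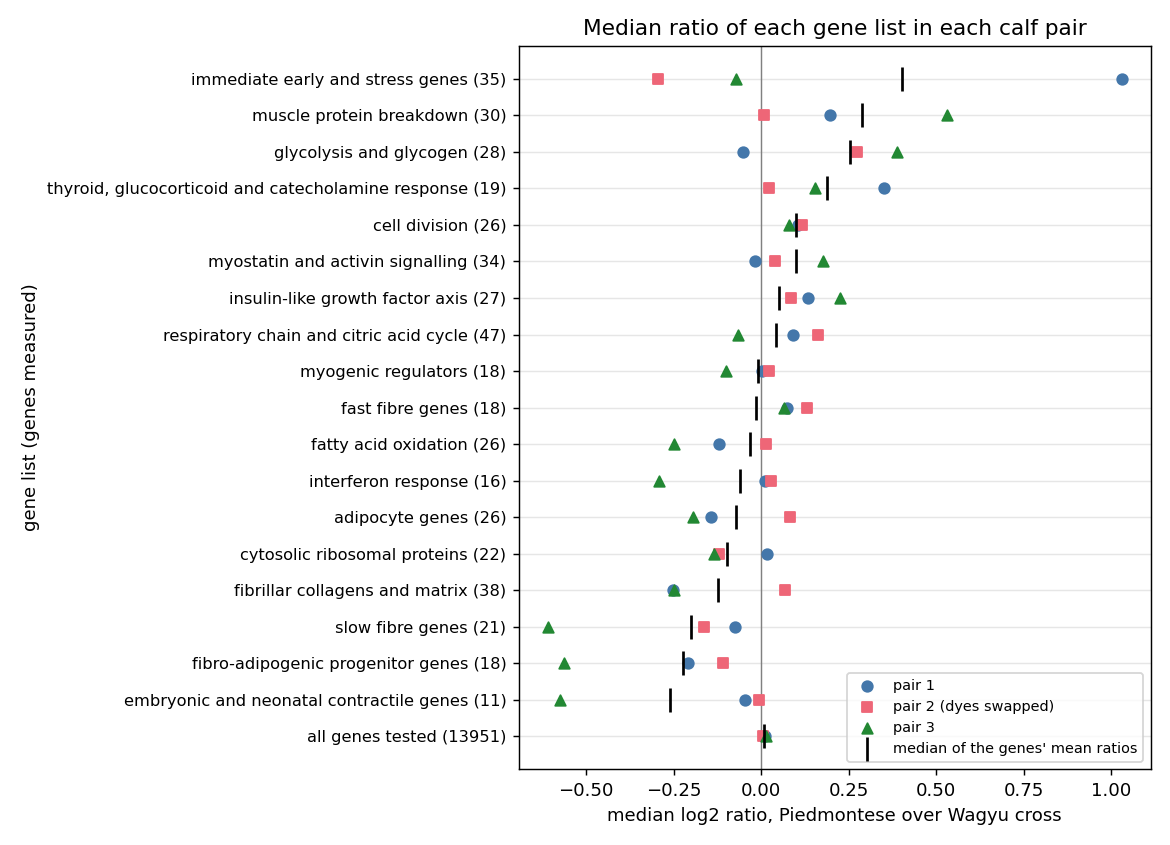
Median over the genes of each list of the log2 ratio of Piedmontese × Hereford over Wagyu × Hereford in each calf pair (coloured symbols) and of the genes' mean ratios (black bars), with the number of measured genes in brackets. The medians of slow fibre genes and fibro-adipogenic progenitor genes lie below 0 in all 3 pairs, those of immediate early and stress genes run from -0.30 in pair 2 to 1.03 in pair 1, and those of all genes lie at 0.01.

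The birth ratios were then set against those of the same crosses earlier and later. In fetal muscle at 135 and 195 days of gestation, 6 arrays held 5 animals of each cross by their labels. The 2 Piedmontese cross labels at 195 days differ only in a closing letter and were counted as 2 animals. Whether they are separate animals is not stated. On these arrays 0 of 13944 genes (0%) passed limma's test at an adjusted p of 0.05. An unadjusted p under 0.05 was seen for 905 (6.49%). For the difference between the birth ratio and the mean fetal ratio, 0 genes (0%) passed and 1975 (14.2%) had an unadjusted p under 0.05. The lowest adjusted p of 0.0962 was shared by PTX3 and CISH. Without pair 2, 296 of 13944 genes passed, 184 with a higher and 112 with a lower ratio at birth. Both birth arrays then left carry the Piedmontese cross calf in Cy3. Among the 296 were 8 of the 20 leading genes, which were chosen by their birth ratios, so this is not separate support. Replicate 2 at 135 days had ratios with an SD of 0.82 over the genes, against 0.19 to 0.38 on the other 8 fetal arrays, and muscle genes were far apart on it, with -6.28 for MYH3, -5.35 for MYOD1, -4.97 for CSRP3 and -4.48 for TPM1. Without it, 0 genes passed in fetal muscle, where 847 had an unadjusted p under 0.05, and 0 passed for the difference, where 2241 did.

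PTX3 and CISH had ratios near 0 in fetal muscle. The mean fetal ratio of PTX3 was -0.10, and its birth ratio was higher by 3.24 ± 0.40 (SE; limma, adjusted p = 0.0962). On the 24 postnatal arrays, which repeat 5 Piedmontese cross and 4 Wagyu cross animals, its ratio ran from -2.13 to 1.89 with 12 arrays of the birth sign. CISH had a fetal ratio of 0.29, and its birth ratio differed by -2.19 ± 0.29 (SE). After birth its ratio ran from -2.39 to 2.01, with the sign of birth on 13 of 24 arrays. The ratio of BOLA-DQB1 was -0.85 in fetal muscle, with 4 of 9 fetal arrays and 6 of 24 postnatal arrays of the birth sign.

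A few genes kept the sign of birth on most arrays of other animals. AKR1C4 was lower in the Piedmontese cross on 9 of 9 fetal arrays, with ratios from -1.27 to -0.05, and on 19 of 24 postnatal arrays. Its mean at 135 and 195 days was -0.60 (limma, unadjusted p = 0.00733, adjusted p = 0.659), and -0.41 without replicate 2 at 135 days. LOC515676 was lower on 8 of 9 fetal and 21 of 24 postnatal arrays, and TAGAP on 8 of 9 and 18 of 24. Of the myostatin antagonists and ligands, FST was lower on 9 of 9 fetal and 17 of 24 postnatal arrays, and TGFB3 on 9 of 9 and 18 of 24. CSRP3 was lower on 8 of 9 fetal and 15 of 24 postnatal arrays, and its ratio was -4.97 on replicate 2 at 135 days and between -0.93 and 0.26 on the other 8 fetal arrays. SH3RF2, higher at birth, was higher on 3 of 9 fetal and 21 of 24 postnatal arrays. ANGPTL2 was lower on 9 of 9 fetal but only 9 of 24 postnatal arrays. These genes were picked out after their values were seen. The share of all genes that kept the sign as often was not computed. At 60 days a single animal of either cross stands behind all 3 arrays, and the postnatal animals were sampled again with age, so that arrays outnumber animals.

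**Figure D4:**
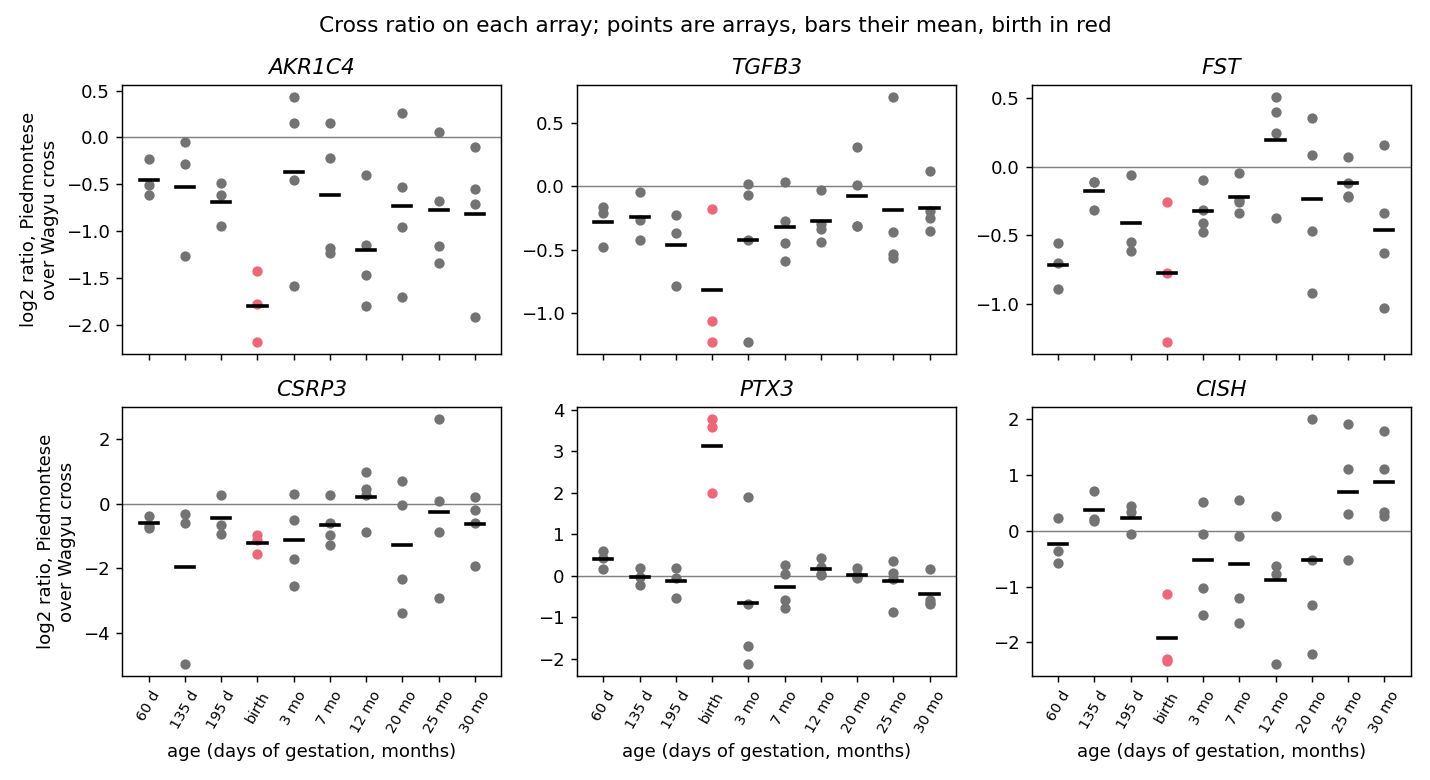
Log2 ratio of Piedmontese × Hereford over Wagyu × Hereford for 6 genes on each array of the 10 ages, from 60 days of gestation to 30 months (points, birth in red; bars are means over 3 arrays before and at birth and 4 after it). AKR1C4, TGFB3 and FST lie below 0 at each fetal age and at birth, while the means of PTX3 and CISH at birth are 3.13 and -1.92 and the ratios of CISH after birth run from -2.39 to 2.01. The CSRP3 ratio of -4.97 at 135 days is on the array that stands apart.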

How the data were processed

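Muscle RNA of 3 calves of each cross was hybridised in pairs to 3 of 48 Agilent 2-colour arrays. The authors deposited raw mean and local background intensity per spot and channel, and a log10 ratio computed by Agilent Feature Extraction (9.5.1 per the submitters' processing notes), which the deposited series table repeats. Of that table, 45 columns of other arrays were not read.

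Here, intensities were corrected by normexp with an offset of 50 and normalized by loess within arrays (limma 3.58.1, R 4.3.3). Each probe's dye effect, estimated on the other 45 arrays, was subtracted (for the fetal contrast, on 36 arrays), and ratios were turned to Piedmontese over Wagyu cross. Probes well above background in at least 3 of 6 birth channels were kept, 14932 of 21475, and averaged to 13951 genes, 910 of them with over 1 probe. Of all probes, 16677 matched a RefSeq gene of ARS-UCD2.0 and the others kept the name in the files. Genes were tested with limma (lmFit, eBayes, two-sided) and Benjamini-Hochberg adjustment, with an array as a pair. The level of a calf is the array mean after Aquantile scaling with the ratio split evenly around it. The scripts were tested on simulated data. The number of arrays limits the precision. In the fit at birth, p-values rest on the spread of the ratios of the 3 pairs, moderated by that of all genes. In the pooled fit and the fetal contrast, the spread also comes from the fetal arrays.

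Named were all measured members of the myostatin list, the 10 largest mean ratios in each direction with 1 sign on all 3 arrays (above background in all 6 channels where none passed), and the highest and lowest member of each other list. MEF2C, TPM3, ANKRD2, ACTN3, MYL1, MYH7, MEST, PDGFRB, PI16, PDGFRA, DCN, COL3A1, FBN1, CIDEC, CEBPA, PGK1, IRS2, IGFBP3, GHR, DDIT4, MAP1LC3A, HSPB1 and ZBTB16, and the markers S100A9, PTPRC, CD74, ACTA1, ZFY and HBG, were added after their values were seen. Of the 20 largest, 2 are not reported here. The comparison and the lists were chosen with earlier results of these data known.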

Additional observations from a re-analysis of the deposited data

How the results depend on the processing

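Of the alternatives, 12 left the number of genes that differed between crosses at birth at 0. It was 68 with the spread pooled over 9 arrays, among them 5 of the 20 leading genes, including PTX3, CISH, AKR1C4 and TIPARP, and 1 (POLR1H, adjusted p = 0.0485 by limma, which also belongs to the 10 largest) when the 6 channels were treated as separate animals with no replicate block, so that the pairing was not used. Without each replicate in turn it stayed between 0 and 0, where 2 pairs are left. The 1653 genes with an unadjusted p under 0.05 became 2777 with the pooled spread, 877 with no replicate block, 1054 without replicate 1, 1893 without replicate 2 (921 higher and 972 lower, against 936 and 717) and 856 without replicate 3. After seeing the data, 4 alternatives were added. The number was 122 with the spread pooled over 8 arrays, without replicate 2 at 135 days, 0 with it pooled without repeated fetal animals, and 0 with the dye effect estimated without that replicate. The 20 leading genes kept their direction under each of these settings. They were chosen for 1 sign on all 3 arrays, so leaving out a replicate could not turn their mean. The pooled fit and the fit with no replicate block use the same mean, so there too the direction was fixed beforehand. As these genes were chosen by their birth ratios, their number among the genes that passed is not separate support. For MSTN the mean ratio ran from -0.28 to 0.35 without each replicate in turn, and it was 0.92 with the deposited log ratio (limma, adjusted p = 0.548), the cause of which was not tested. MSTN was not tested where all 6 channels had to be above background, and its value with no replicate block was -0.0019. A change of sign smaller than the SD between pairs was not counted. For the difference from fetal muscle, 0 genes passed, also without replicate 2 at 135 days, except 1 with median centring (PTX3, adjusted p = 0.0145 by limma), and between 0 and 296 without each birth replicate in turn, where the 1 gene without replicate 1 was ZC3H8 and the 296 came without replicate 2. ZC3H8 was named after its value was seen. Dim probes such as that of MSTN limit the ratios more than bright ones.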
